A study of Mus musculus with 12 samples.

Results

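Guanylate-binding proteins (GBPs) and immunity-related GTPases (IRGs) are 2 families of interferon-inducible GTPases. The 10 members described here were chosen by name: Gbp2, Gbp3, Gbp5, Gbp7, Gbp9, Irgm1, Irgm2, Igtp, Iigp1 and Tgtp2. They are 10 of the 43626 gene identifiers counted in each library, and 9 of them could be matched to the count files and were among the 14308 genes tested. Gbp5 had no matching identifier, so no value is given for it. The data are RNA-Seq libraries of mouse bone marrow-derived macrophages (BMDMs), 3 for each of 4 conditions: PBS, 3′SL (labelled HMO), LPS, and LPS + 3′SL. 3′SL is 3′-sialyllactose, a sialylated human milk oligosaccharide, given at 100 μg/mL, and LPS is the bacterial lipopolysaccharide that activates TLR4, given at 10 ng/mL. Cells were treated for 6 hours. The labels give no mouse strain, genotype, sex or age and do not say whether libraries came from separate animals, so the p-values measure only the spread between these libraries.

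GBPs and IRGs are made in response to interferon-γ and type I interferon, and in macrophages they act against bacteria and protozoa that live inside vacuoles. GBPs coat pathogen membranes and LPS, and help caspase-11 and the inflammasomes to respond to LPS in the cytosol. Among the IRGs, Iigp1 and Tgtp2 belong to the effector class that loads onto the pathogen vacuole, whereas Irgm1, Irgm2 and Igtp belong to the regulatory class that sits on the cell's own membranes and holds the effectors in check. LPS reaches both families through TLR4 and IFN-β, and their promoters are known for the ISRE and GAS elements that interferon-activated factors bind.

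The promoters of these genes are shown for the ISRE and GAS letters they hold. Whether these letters bear on the changes described below was not tested. RefSeq (GRCm38.p6) windows, from 250 bases before to 50 bases after the start, were used for 8 of the 10 members, with 2 for Gbp3. No window was found for Gbp9, and Iigp1 was left out before the search, so the member counts below cover neither. An ISRE core, spelled GAAA, any 2 bases and GAAA again, and searched on both strands, was present for 8 of these 8 members and in 3.44% of all 32851 windows. A GAS, spelled TTCNNNGAA, was present for 5 of the 8 and in 8.30% of all windows. The search counted overlapping matches. Each line gives 30 bases upstream of the start, 5′ to 3′ on the strand of the gene, with the matched letters in capitals. In the first 5 lines the capitals are the ISRE core alone.
Gbp2: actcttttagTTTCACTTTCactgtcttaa
Gbp3: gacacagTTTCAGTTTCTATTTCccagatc
Gbp5: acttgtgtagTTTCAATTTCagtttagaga
Gbp7: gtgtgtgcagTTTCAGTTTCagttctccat
Irgm1: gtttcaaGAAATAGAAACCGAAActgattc
Irgm2: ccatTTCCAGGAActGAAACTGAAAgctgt
Igtp: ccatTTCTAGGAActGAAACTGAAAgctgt
Tgtp2: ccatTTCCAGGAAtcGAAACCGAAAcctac

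The printed stretches lie at chr3:142620594-142620623 (Gbp2), chr3:142559992-142560021 (Gbp3), chr3:142496759-142496788 (Gbp5), chr3:142530273-142530302 (Gbp7), chr11:58214898-58214927 (Irgm2) and chr11:58199507-58199536 (Igtp), all on the plus strand, and at chr11:48871428-48871457 (Irgm1) and chr11:49064268-49064297 (Tgtp2) on the minus strand. The 4 GBP genes carried the core in the TTTC orientation and the 4 IRG genes in the GAAA orientation. Gbp3 and Irgm1 had a pair of overlapping cores, beginning 45 and 39 bases before the start of Gbp3 and 30 and 24 bases before that of Irgm1. In Irgm2, Igtp and Tgtp2 a GAS began 11 bases ahead of the core. Gbp5 and Gbp7 also held GAS letters elsewhere in the window. A match says only that these letters are present.

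Genes of both families lie in clusters of close copies, which bears on their counts. The share of 50-base words in a gene's transcripts that also occur in transcripts of another gene was 0.310% for Irgm1, 1.69% for Iigp1, 2.03% for Gbp2, 3.75% for Gbp3, 7.77% for Irgm2, 8.05% for Gbp9, 11.8% for Igtp and 12.7% for Gbp7. For Tgtp2 it was 86.6%, nearly all of it shared with Tgtp1. The counts of Tgtp2 and Tgtp1 are therefore uncertain as a split between these copies. In Gbp7, 10.5% of the words were shared with Gm43802, which overlaps its exons and has no identifier among those counted. With Gbp3 the share was 2.24%. Igtp and Irgm2 also overlap by 162 bases of exon on the same strand, which is 8.01% of the exons of Igtp. The labels do not say how reads matching several genes were counted, and 8634639 to 11273250 reads per library were set aside as not unique.

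Libraries carried 20411741 to 26851890 reads on genes. Their titles number them in 3 runs of 4, each holding 1 library of every condition. These library sets, which the labels do not describe, stood apart from each other: residuals from the condition means correlated at 0.596 on average within a set and -0.346 between sets. Fitting the sets as a block lowered the coefficient of variation from 0.310 to 0.133, so values within each set and from the blocked fit are given beside the pooled ones where they matter. The macrophage genes Lyz2 (12155 to 15730 CPM, read counts per library size after TMM scaling), Adgre1 (1152 to 3760 CPM) and Csf1r (1668 to 3562 CPM) were high in every library. Of 24 markers of other cell types, Cd3e and Cd3g had no read in any library. The summed level of those markers was 510 to 586 CPM in set 1, 27.0 to 38.1 in set 2 and 59.0 to 94.1 in set 3, mostly from Col1a1, Col1a2 and Col3a1, and spanned 27.0 to 510 CPM in PBS, 30.7 to 551 in 3′SL, 38.1 to 576 in LPS and 31.4 to 586 in LPS + 3′SL.

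LPS raised all 9 measured members, by 15.6-fold to 158-fold against PBS. All 9 were called higher, meaning at least 1.5-fold at an adjusted p under 0.05 by edgeR's quasi-likelihood test, against 18.3% of all genes tested. For each of them the 3 LPS libraries lay above the 3 PBS libraries, as for 27.3% of all genes. The median log2 fold change of the members was 6.45, against -0.06 over all genes. Scaling by total counts, which moved the median of all genes by -0.65, gave log2 fold changes of 3.30 (Irgm1) to 6.63 (Iigp1) in place of 3.96 (Irgm1) to 7.30 (Gbp3). Together the 9 genes took 0.0251% ± 0.0104 (SD, n = 3) of the reads on genes in PBS and 0.811% ± 0.0964 (SD, n = 3) in LPS. In these bulk samples, more cells with a transcript and more of it per cell cannot be told apart.

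**Figure D1:**
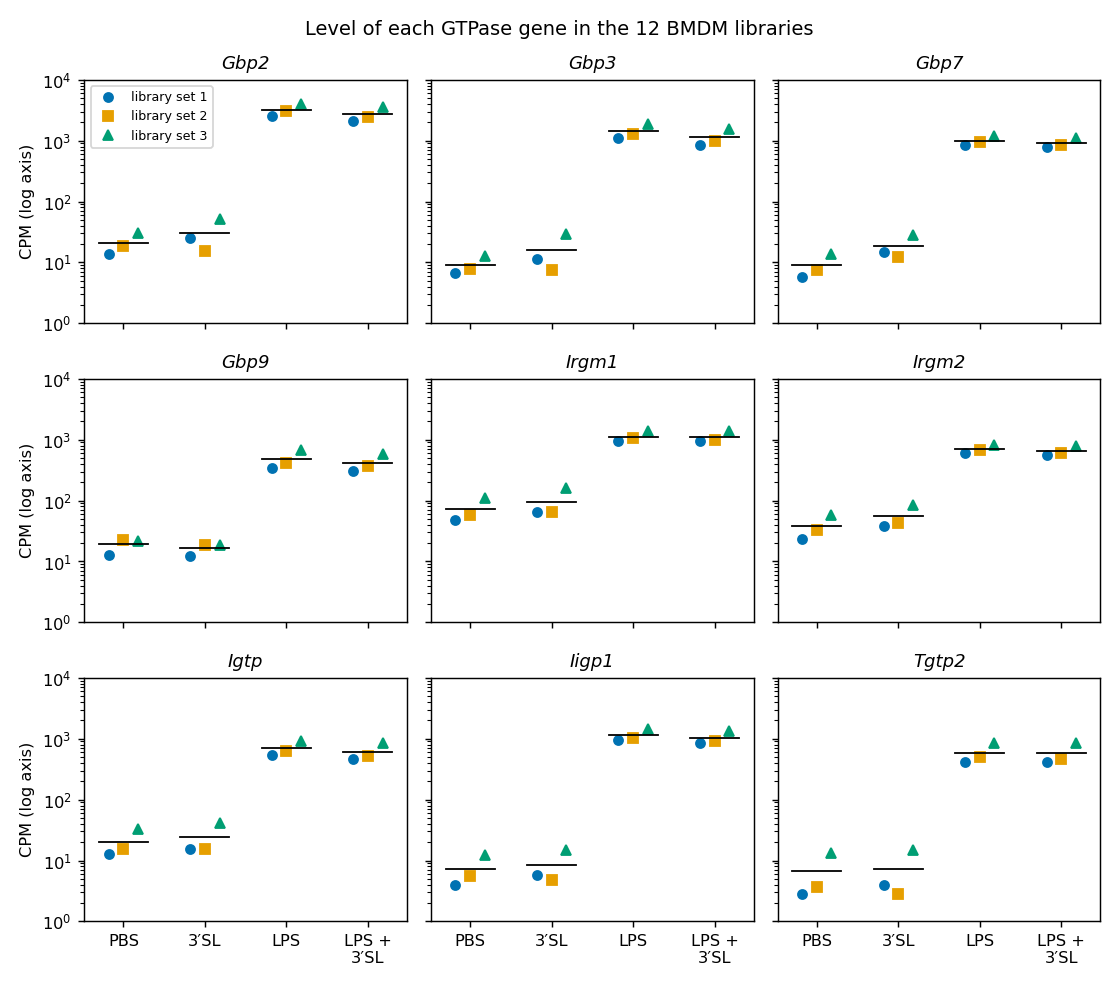
Level of each of the 9 measured genes in CPM (log axis) in the 12 libraries, by condition, with a symbol for each library set and a line at the mean of 3 libraries. Every LPS and LPS + 3′SL library lies above every library without LPS, and library set 3 is the highest with LPS for all 9 genes.

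Gbp2, which is prenylated at its C-terminus and is recruited to pathogen membranes, stood at 14.0, 18.4 and 30.3 CPM in PBS and at 2524, 3088 and 3959 CPM in LPS. The groups were far apart, and set 3 was highest in both. The fitted log2 fold change was 7.25 ± 0.56 (SE, adjusted p = 3.23e-06, edgeR). Gbp3 is a close relative in the same chromosome 3 cluster. Its levels were 6.66, 7.75 and 12.6 CPM in PBS and 1115, 1302 and 1846 CPM in LPS, a log2 fold change of 7.30 ± 0.59 (SE, adjusted p = 4.54e-06, edgeR), the highest of the 9.

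Gbp7, of the same cluster, was measured at 5.86, 7.44 and 13.6 CPM in PBS and at 846, 947 and 1208 CPM in LPS. Its log2 fold change was 6.80 ± 0.45 (SE, adjusted p = 1.42e-06, edgeR). The chromosome 5 cluster was represented by Gbp9, with 12.8, 22.4 and 22.0 CPM in PBS and 345, 411 and 677 CPM in LPS. At 4.65 ± 0.37 (SE, adjusted p = 4.37e-06, edgeR) its log2 fold change was the lowest of the 4 GBPs measured.

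The 3 regulatory IRGs had smaller fitted LPS changes than the 2 effector IRGs. The difference was not tested. In the fit with no block, the 95% interval of Tgtp2 (4.57 to 8.33) overlapped those of all 3 regulatory IRGs. The interval of Iigp1 overlapped that of Igtp there. With library sets as a block, the intervals of Tgtp2 (6.00 to 7.39) and Iigp1 (6.85 to 7.98) overlapped none of the 3. Those of the regulatory IRGs then ended at 5.56 (Igtp), 4.68 (Irgm2) and 4.42 (Irgm1). Irgm1 had the highest level without stimulation, with 48.7, 58.9 and 109 CPM in PBS, and reached 948, 1050 and 1377 CPM in LPS. That is a log2 fold change of 3.96 ± 0.44 (SE, adjusted p = 3.58e-05, edgeR), the lowest of the 9. For Irgm2 the PBS libraries stood at 23.5, 32.7 and 57.5 CPM and the LPS libraries at 593, 683 and 819 CPM. The log2 fold change of Irgm2 was 4.20 ± 0.40 (SE, adjusted p = 1.41e-05, edgeR). Igtp, also called Irgm3, rose from 12.7, 15.4 and 32.7 CPM to 538, 627 and 907 CPM, a log2 fold change of 5.09 ± 0.54 (SE, adjusted p = 2.54e-05, edgeR).

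Iigp1, the effector also called Irga6, was near the bottom of the members without LPS, at 4.02, 5.54 and 12.4 CPM. In LPS it reached 960, 1029 and 1448 CPM, and the log2 fold change was 7.29 ± 0.61 (SE, adjusted p = 5.26e-06, edgeR). Iigp1 lies at chr18:60376027-60392634 in the GENCODE M21 annotation, apart from the other IRG members on chromosome 11. Tgtp2, a T-cell-specific GTPase by name and an effector IRG, had 2.81, 3.65 and 13.5 CPM in PBS and 412, 496 and 839 CPM in LPS. Its log2 fold change of 6.45 ± 0.85 (SE, adjusted p = 1.20e-04, edgeR) had the largest error of the 9, and its PBS library of set 3 lay far above the other two. Without that library, in a fit with no block, the value was 7.49.

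LPS raised the same 9 genes when 3′SL was present in both arms. All 9 were called higher in LPS + 3′SL than in 3′SL, against 14.3% of all genes, and for all 9 the groups did not overlap. Of all genes tested, 22.4% lay higher with no overlap. Their log2 fold changes ran from 3.54 (Irgm1) to 6.94 (Iigp1), with a median of 5.64 against -0.07 over all genes. This comparison shares no library with LPS against PBS. The 2 changes are drawn side by side in the plot of the change with LPS.

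**Figure D2:**
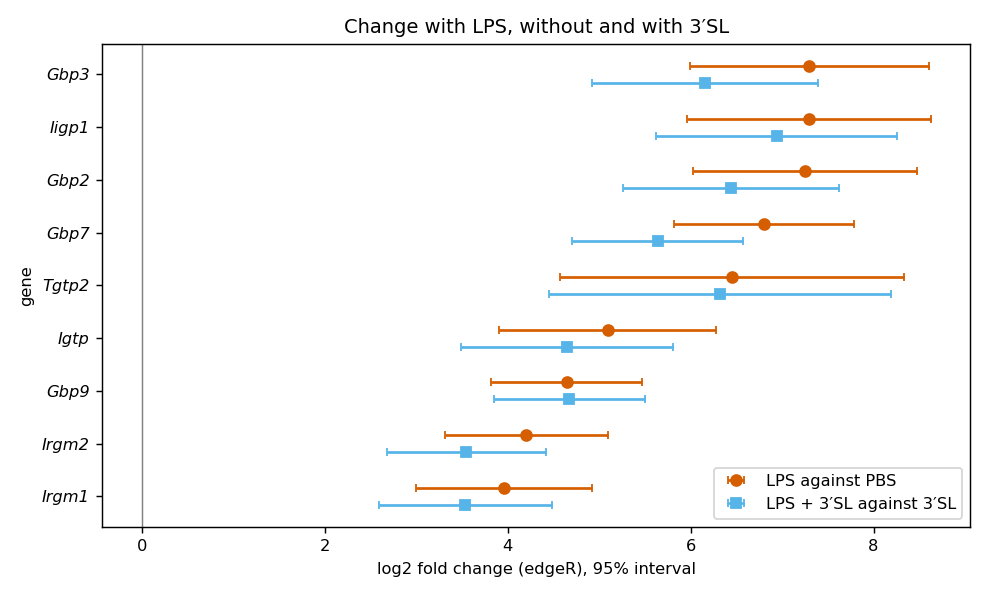
Log2 fold change with its 95% interval (edgeR, 12 libraries) for LPS against PBS (circles) and for LPS + 3′SL against 3′SL (squares), by gene in the order of the first. All intervals lie above 0, and in this fit those of the 2 comparisons overlap for every gene. With library sets as a block, not drawn here, those of Gbp7 did not overlap (6.44 to 7.30 and 5.29 to 6.10).

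Within library sets, LPS raised every member in all 3 sets, and the size of the rise differed between sets. The median log2 ratio of LPS over PBS was 7.17 in set 1, 6.99 in set 2 and 5.96 in set 3. For 8 of the 9 the ratio was smallest in set 3, with Gbp9 the exception. Levels also differed between sets. In PBS, the set 3 library was the highest for 8 of the 9 genes, at 1.76 (Gbp3) to 4.18 (Tgtp2) times the mean of the other two sets. In LPS it was the highest for all 9, at 1.28 to 1.85 times. For Gbp9 in PBS, set 2 was slightly higher than set 3, and this ratio was 1.25. Each of these ratios compares single libraries and has no replicate error. The summed markers of other cell types, mostly collagens, were highest in set 1. Not every marker followed that sum, as Pecam1 stood at 1.44, 1.33 and 3.10 CPM in PBS. Whether other cells bear on the levels of the members was not tested.

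Per kilobase of exon, the order of the members changed with LPS. In PBS the mean level in RPKM was highest for Irgm1 (12.4 ± 5.57, SD, n = 3), followed by Irgm2 (10.3 ± 4.77), Igtp (10.0 ± 5.38) and Gbp2 (8.31 ± 3.35). Below them came Gbp9 (3.69 ± 1.05), Gbp3 (2.76 ± 0.977), Tgtp2 (2.26 ± 2.02), Gbp7 (1.60 ± 0.731) and Iigp1 (1.26 ± 0.765). Each neighbouring pair in this order had overlapping ranges except Gbp2 and Gbp9.

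In LPS the order in RPKM was Gbp2 (1268 ± 287, SD, n = 3), Gbp3 (435 ± 116), Igtp (342 ± 95.3), Tgtp2 (198 ± 77.0), Iigp1 (197 ± 45.4), Irgm1 (194 ± 38.6), Irgm2 (189 ± 30.7), Gbp7 (178 ± 33.3) and Gbp9 (92.3 ± 33.9). Gbp2 lay above Gbp3, and Gbp7 above Gbp9, with no overlap of their ranges. The 5 genes from Tgtp2 to Gbp7 had overlapping ranges from neighbour to neighbour. The level of Tgtp2 counts only what was assigned to it among reads shared with Tgtp1.

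**Figure D3:**
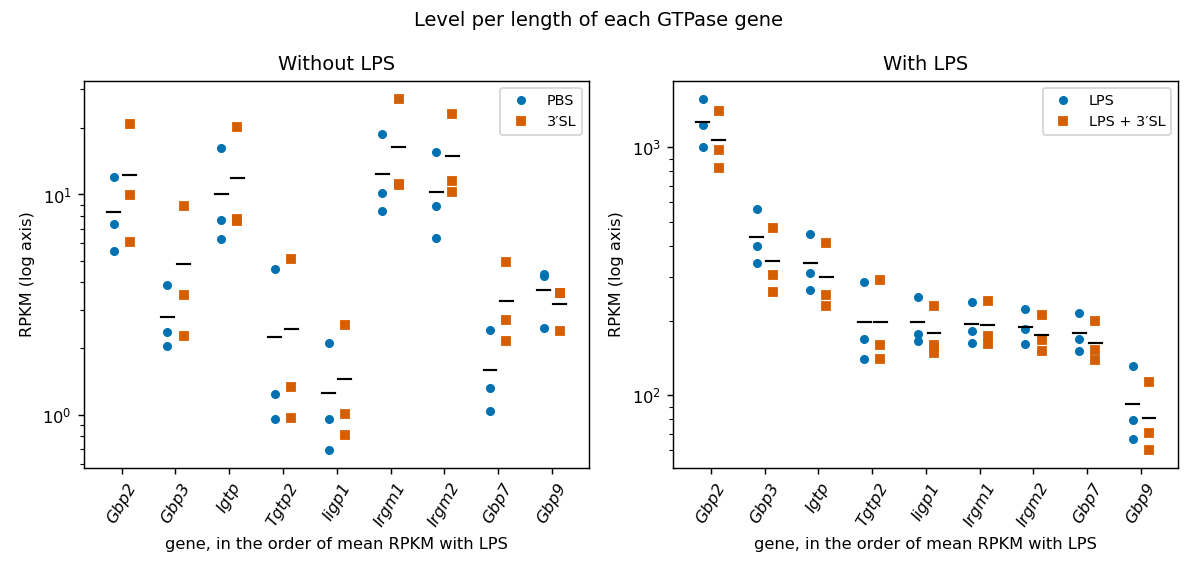
Level per length in RPKM (log axes, on different scales) of the 9 genes without LPS (left) and with LPS (right), with points for single libraries, lines for means of 3, and genes in the order of the mean with LPS. Irgm1 leads without LPS at a mean of 12.4 in PBS, and Gbp2 leads with LPS at a mean of 1268.

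3′SL alone called none of the 9 members against PBS (0 of 9; 0% of all genes tested by edgeR). At an unadjusted p under 0.05, 1 of 9 passed, which was Gbp7, against 10.1% of all genes. In the blocked edgeR fit 5 of 9 passed, namely Gbp2, Gbp3, Gbp7, Irgm1 and Irgm2. The share of all genes was not counted in that fit, so 5 of 9 cannot be set against it. DESeq2 called 0 of 9, against 0.615% of all genes. The log2 fold changes ran from -0.22 (Gbp9) to 1.03 (Gbp7), with 8 of 9 above 0, as were 50.2% of all genes. The groups overlapped for every member, and they did not overlap for 17.5% of all genes. The median change of the members was 0.41, against 0.00 over all genes. This comparison and LPS against PBS share the 3 PBS libraries.

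Gbp7 had the largest difference. It stood at 5.86, 7.44 and 13.6 CPM in PBS and at 15.1, 12.2 and 27.8 CPM in 3′SL. The 3′SL library was the higher in every set, with log2 ratios of 1.37, 0.71 and 1.03 in sets 1 to 3, while the groups overlapped because the PBS library of set 3 lay above the 3′SL library of set 2. The 12-library fit gave 1.03 (95% interval 0.24 to 1.82, adjusted p = 0.410, edgeR). With library sets as a block it gave 1.04 (95% interval 0.67 to 1.40, adjusted p = 0.00945), a call. Gbp7 was the 1 member of 9 called in that fit, in which 2.84% of all genes were called. Without set 3, Gbp7 was also called by edgeR with no block (1.02, adjusted p = 0.0307) and with it (1.03, adjusted p = 0.000459). The share of all genes called without set 3 was not counted, so these calls cannot be set against it. DESeq2 with the block called Gbp7 and Gbp3, 2 of 9, against 4.53% of all genes.

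Gbp3 stood at 11.4, 7.40 and 28.8 CPM in 3′SL, against 6.66, 7.75 and 12.6 in PBS. Its log2 ratios were 0.77, -0.07 and 1.19 in sets 1 to 3. The fit gave 0.81 (95% interval -0.21 to 1.84, adjusted p = 0.605), and the block gave 0.71 (adjusted p = 0.0800). Without the set 3 library of 3′SL, in a fit with no block, the value of Gbp3 was 0.023. Gbp2 showed the same order of libraries, with 25.1, 15.4 and 52.3 CPM in 3′SL and log2 ratios of 0.84, -0.26 and 0.79. Its fitted value was 0.57 (95% interval -0.38 to 1.51, adjusted p = 0.713, edgeR). With the block it was 0.51 (95% interval 0.04 to 0.99, adjusted p = 0.174, edgeR).

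Of the IRGs, Irgm2 (37.8, 42.7 and 85.7 CPM in 3′SL) and Irgm1 (64.8, 64.1 and 158 CPM in 3′SL) were, with Gbp7, the 3 of 9 members higher with 3′SL in each set, as were 25.8% of all genes. Their log2 ratios were 0.69, 0.38 and 0.58 for Irgm2 and 0.41, 0.12 and 0.53 for Irgm1. Neither of them was called by edgeR, with fitted values of 0.55 and 0.41 in the fit with no block. With the block, edgeR gave 0.55 for Irgm2 (unadjusted p = 0.00555, adjusted p = 0.0695). For Irgm1 the blocked edgeR value was 0.37 (unadjusted p = 0.0382, adjusted p = 0.182). DESeq2 with the block gave 0.56 for Irgm2 (adjusted p = 0.0271), under the fold minimum of a call, and 0.38 for Irgm1 (adjusted p = 0.166). Igtp (15.7, 15.3 and 41.1 CPM), Iigp1 (5.84, 4.73 and 14.8 CPM) and Tgtp2 (3.91, 2.82 and 15.0 CPM) were higher in sets 1 and 3 and lower in set 2. Gbp9 was lower in every set, at 12.4, 18.5 and 18.4 CPM in 3′SL. Without the set 3 library of 3′SL, in a fit with no block, values fell below 0 for Gbp2, Irgm1, Igtp, Iigp1 and Tgtp2. That fit set 3′SL libraries of sets 1 and 2 against PBS libraries of all 3 sets.

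With LPS present, 3′SL called none of the 9 members (0 of 9; 0% of all genes by edgeR), and 0 of 9 had an unadjusted p under 0.05, against 6.95% of all genes. DESeq2 called 0 of 9 (0.79% of all genes), the blocked edgeR fit 0 of 9 (1.45% of all genes) and DESeq2 with the block 0 of 9 (1.98% of all genes). The groups overlapped for every member, and did not for 12.7% of all genes. All 9 fitted log2 fold changes were at or just below 0, from -0.33 (Gbp3) to -0.01 (Tgtp2), where 51.2% of all genes were below 0. Scaling by total counts put Irgm1 and Tgtp2 above 0.

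The libraries of LPS + 3′SL stood at 2074, 2445 and 3544 CPM for Gbp2, against 2524, 3088 and 3959 in LPS. For Gbp3 they stood at 849, 999 and 1550 CPM, against 1115, 1302 and 1846. Both genes were lower with 3′SL in every set, by log2 ratios of -0.28, -0.34 and -0.16 for Gbp2 and -0.39, -0.38 and -0.25 for Gbp3. The interval for Gbp3 ran from -1.31 to 0.66 in the 12-library fit and from -0.78 to 0.09 with the block, and both include 0. The differences within sets were also smaller than the 1.5-fold minimum of a call.

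Gbp7 (776, 854 and 1113 CPM), Gbp9 (310, 364 and 583 CPM), Irgm2 (555, 615 and 774 CPM), Igtp (464, 513 and 834 CPM) and Iigp1 (859, 932 and 1335 CPM) were also lower in all 3 sets, which makes 7 of 9 members with Gbp2 and Gbp3, against 25.7% of all genes. Without the set 3 library of LPS, the fitted values of 7 members, all but Gbp2 and Gbp3, lay above 0. That fit had no block and set LPS libraries of the other sets against LPS + 3′SL libraries of all 3 sets. Irgm1 (934, 1003 and 1394 CPM) and Tgtp2 (413, 467 and 853 CPM) differed from LPS in both directions across sets. Over the 9 genes the 95% intervals of the blocked fit lay between -0.78 and 0.50 on the log2 scale.

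**Figure D4:**
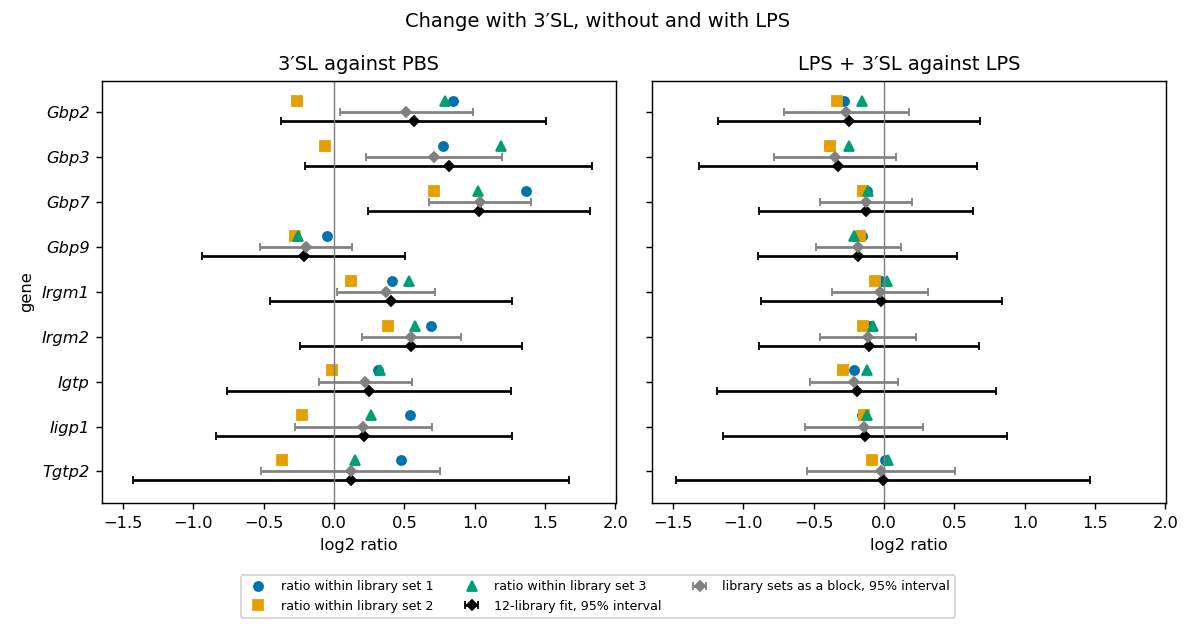
Log2 ratio for 3′SL against PBS (left) and LPS + 3′SL against LPS (right) by gene, with the ratio within each library set (coloured), the 12-library fit (black) and the fit with library sets as a block (grey), both with 95% intervals. On the left, Gbp7, Irgm1 and Irgm2 are above 0 in all 3 sets, and both intervals exclude 0 for Gbp7 alone. The blocked intervals of Gbp2, Gbp3, Irgm1 and Irgm2 also exclude 0 there, without a call by edgeR. On the right every interval includes 0.

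The difference between these 2 changes was tested as the interaction of LPS and 3′SL. None of the 9 was called (0 of 9; 0% of all genes by edgeR), and 1 of 9, Gbp7, had an unadjusted p under 0.05, against 6.09% of all genes. In the blocked edgeR fit 4 of 9 had an unadjusted p under 0.05, namely Gbp2, Gbp3, Gbp7 and Irgm2. The share of all genes was not counted in that fit, so 4 of 9 cannot be set against it. DESeq2 called 0 of 9 (0.308% of all genes). Fitted values were below 0 for 8 of 9, as for 50.5% of all genes. Gbp7 had -1.16 (95% interval -2.25 to -0.07, adjusted p = 0.811, edgeR), and the blocked fit gave -1.17 (95% interval -1.66 to -0.68, adjusted p = 0.0281) and called it, as 1 of 9 members against 1.55% of all genes. DESeq2 with the block called Gbp7 and Gbp3 (3.54% of all genes). Gbp3 had -1.14 (95% interval -2.56 to 0.28) in the 12-library fit, and -0.35 without the set 3 library of 3′SL, also with no block. The block changed no other call of a member in the 5 comparisons made with edgeR.

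Other genes of the 2 families moved with LPS as the members did. Of 18 listed, 16 were matched and 15 tested, and 14 of 15 were called higher in LPS, against 18.3% of all genes. Their median log2 fold change, over the 15 tested, was 5.01, against -0.06 over all genes. No other GBP or IRG was called in either comparison of 3′SL by the 12-library fit, in which 0% of all genes were called. Gbp2b, the gene also known as Gbp1 and the neighbour of Gbp2, stood at 4.05, 4.70 and 10.4 CPM in PBS and 2244, 2729 and 3913 CPM in LPS. That is a log2 fold change of 8.86 ± 0.74 (SE, adjusted p = 5.31e-06, edgeR). In 3′SL it stood at 9.27, 7.04 and 28.7 CPM, higher than PBS in every set, with a fitted value of 1.23 (adjusted p = 0.493, edgeR). The blocked fit called it, at 1.15 (adjusted p = 0.0183), and also its interaction, at -1.41 (adjusted p = 0.0420). That fit called 2.84% of all genes in 3′SL against PBS and 1.55% in the interaction.

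Gbp4, next to Gbp9, rose from 0.431, 0.702 and 0.573 CPM to 119, 142 and 267 CPM, with a log2 fold change of 8.27 ± 0.63 (SE, adjusted p = 3.26e-06, edgeR). Tgtp1 had 1 to 9 reads in the PBS libraries and 12.3, 19.0 and 32.8 CPM in LPS, far under the 412 to 839 CPM assigned to its copy Tgtp2. It was called higher in LPS (adjusted p = 6.41e-06, edgeR). Gbp8 was the smallest rise among the GBPs, from 1.41, 1.68 and 1.38 CPM to 6.15, 7.89 and 9.82 CPM. Irgq, a distant relative, was not called, at 19.1 to 29.4 CPM without LPS and 16.8 to 22.8 CPM with it. Of the other interferon-inducible GTPases, 5 of 5 tested were called higher in LPS, against 18.3% of all genes. Among them were the antiviral Mx1 (log2 fold change 6.83) and Mx2 (6.29).

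The interferon pathway upstream of these genes was measured as a list of 19 genes, of which 18 were tested. LPS called 15 higher and 1 lower, against 18.3% and 20.2% of all genes, and the median log2 fold change of the list was 1.90. Ifnb1, which encodes IFN-β, had no read in the 6 libraries without LPS and stood at 1.31 to 3.48 CPM in the 6 with it. Ifng, which encodes interferon-γ, had no read in any library. Over the 12 libraries, a count of 0 allows a level of up to 0.0861 to 0.184 CPM, for counting error only.

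With LPS against PBS, Irf1, a factor that acts on GBP promoters, rose by 3.45 on the log2 scale (adjusted p = 4.58e-07, edgeR). Irf7, which amplifies type I interferon, rose by 4.67 (adjusted p = 0.00106, edgeR). Among the inhibitors, Socs1 rose by 6.79 and Usp18 by 5.58. The receptor subunit Ifngr1 was the 1 gene called lower, at -0.87, while Ifnar1 was called higher, at 1.65. Neither comparison of 3′SL called a gene of this list in the 12-library fit (0 of 18; 0% of all genes). The blocked fit called Jak2, a kinase of the interferon-γ receptor, in 3′SL against PBS (0.59, adjusted p = 0.0140) and in the interaction (-0.90, adjusted p = 0.0166). In these comparisons it called 2.84% and 1.55% of all genes. As with 8 of the members, the log2 ratio of LPS over PBS for Irf7 was smallest in set 3, at 5.54, 5.21 and 4.18 in sets 1 to 3.

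GBPs act together with other groups of genes. Of 9 genes of GBP-linked cell death, 9 of 9 were called higher in LPS, against 18.3% of all genes. They included Casp4, which encodes caspase-11 (log2 fold change 4.78), Il18 (3.69) and Il1b (9.80). In LPS + 3′SL against 3′SL, 8 of 9 were called higher, against 14.3% of all genes, and Ninj1 as well with the block. Neither comparison of 3′SL called any of the 9 in the 12-library fit by edgeR, which called 0% of all genes there. Casp4 in 3′SL against PBS had 0.65 (unadjusted p = 0.00829, adjusted p = 0.358). The blocked fit called Casp4 (0.65, adjusted p = 0.0159) and, lower, the inflammasome adaptor Pycard (-0.87, adjusted p = 0.0294) in that comparison, and it called Il1b lower in LPS + 3′SL against LPS (-1.30, adjusted p = 0.0221). In the interaction it called Casp4 (-0.88, adjusted p = 0.0300) and Il1b (-2.45, adjusted p = 0.0153). The blocked fit called 2.84% of all genes in 3′SL against PBS, 1.45% in LPS + 3′SL against LPS and 1.55% in the interaction.

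Of 14 genes that target vacuoles, 5 were called higher and 1 lower in LPS, where 18.3% of all genes were called higher and 20.2% lower, with Rnf213 (4.28) and the ubiquitin ligase Trim21 (3.45) the largest. The median of that list was 0.27. Of 8 prenylation genes, 1 was called higher and 2 lower, namely Pggt1b (0.75), a subunit of the geranylgeranyl transferase, and Icmt (-0.67) and Fntb (-0.64), which is near the shares over all genes. In LPS + 3′SL against 3′SL, 3 vacuole genes were called higher and 1 lower, and 1 prenylation gene higher, where 14.3% of all genes were called higher and 14.8% lower. With the block, Sqstm1 was also called higher in LPS (0.94, adjusted p = 0.0108) and in 3′SL against PBS (1.12, adjusted p = 0.0385). Fdps, which makes the prenyl donor farnesyl diphosphate, was called higher in LPS + 3′SL against LPS (0.87, adjusted p = 0.00212). The blocked fit called 2.84% of all genes in 3′SL against PBS and 1.45% in LPS + 3′SL against LPS. Of 10 macrophage identity genes, 6 were called higher in LPS, led by Fcgr1 (3.31) and Cd14 (2.68). The block took away the call of Itgam and added Cd14 in 3′SL against PBS (0.81, adjusted p = 0.00945). Of the markers of other cell types, 11 were tested and 1 was called, Klrb1c, lower with LPS at levels of at most 1.23 CPM. With the block, Col3a1 (0.63) and Dcn (1.24) were also called higher in LPS.

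The genes whose pattern over the 12 libraries was most like the mean standardised level of the members, among 12035 genes outside the lists, were Eif2ak2 (Pearson r = 0.999), Ifih1, Zup1, Parp10 and Parp12. Eif2ak2 encodes the double-stranded RNA kinase PKR and Ifih1 the RNA sensor MDA5. The 12 points fall in a cluster with LPS and one without, so r mostly reflects that step, and it is given as a description. Eif2ak2 stood at 71.3 to 129 CPM without LPS and 528 to 767 CPM with it. Ifih1 stood at 34.0 to 105 CPM and 1201 to 2612 CPM.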

How the data were processed

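Each file the authors deposited holds unnormalized whole-number counts of reads on the genes of 1 library, followed by lines for unassigned reads. Polyadenylated RNA was made into stranded libraries, and the submitters' processing notes name FastQC, Trimmomatic, STAR, HTSeq and DESeq2, with no versions or roles. The genome build, annotation and strand setting are not given in the sources used here. Conditions came from the labels, and doses and hours from the study's text. The labels' treatment protocol describes injected mice, not cells. Reads not assigned to a gene were left out of library sizes.

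Identifiers were matched without version to GENCODE M21 (42462 of 43626). The members and all gene lists were chosen with earlier results of these data known. Counts were fitted in edgeR 4.0.16 (R 4.3.3) with filterByExpr, TMM factors (0.700 to 1.298) and 1 mean per condition over all 12 libraries, and tested by the quasi-likelihood test with Benjamini-Hochberg adjustment over 14308 genes. A call needed an adjusted p under 0.05 and a fold of at least 1.5. Standard errors and 95% intervals came from the same fit. CPM values are TMM-scaled, and RPKM used M21 exon lengths. DESeq2 1.42.0 and a block for library sets were alternatives, and blocked fits without each set were added after seeing the data. The fits were tested on simulated counts. Named genes were the members in every comparison, close copies, at most 3 called genes with the largest change per list and comparison, and the 5 genes most like the members. Other genes named (such as Irf1, Irf7, Jak2, Ifng, Irgq, Gbp8, Lyz2 and those whose call the block changed) were chosen after their values were seen.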

Additional observations from a re-analysis of the deposited data

Results flagged for a closer look

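The change of Gbp7 with 3′SL differed between cells without and with LPS in a test of the difference itself, in the edgeR fit with library sets as a block. The interaction was -1.17 on the log2 scale (95% interval -1.66 to -0.68, adjusted p = 0.0281). The 12-library fit gave -1.16 and did not call it (adjusted p = 0.811). Within sets, Gbp7 was higher with 3′SL without LPS in 3 of 3 sets (log2 ratios 1.37, 0.71 and 1.03) and lower with LPS present in 3 of 3 (-0.12, -0.15 and -0.12). The interaction of Gbp3 was called by DESeq2 with the block (-1.06, adjusted p = 0.0199), which called 3.54% of all genes. That of Irgm2 was called by the blocked edgeR fit without library set 3 (-0.63, adjusted p = 0.00846). The share of all genes called in the fit without set 3 was not counted.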

How the results depend on the processing

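All 9 measured members stayed called higher with LPS, without and with 3′SL, under every alternative run, with the same direction in 234 of 234 gene-level values of each comparison. Calls in LPS + 3′SL against LPS stayed at 0. In 3′SL against PBS, where the 12-library edgeR fit called 0, 1 member was called with library sets as a block, 1 at an unadjusted p with the 1.5-fold minimum, 2 by DESeq2 with the block, and 0 to 1 when libraries or sets were left out. In the interaction, also 0, the counts were 1, 1, 2 and 0 to 2 in the same order. Shares of all genes were not counted for the fits that left out libraries or sets. The block changed no other call of a member.

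Total-count scaling moved the median log2 change of all genes by -0.65 in LPS against PBS, by -0.48 in LPS + 3′SL against 3′SL, and by 0.17 in the interaction. It turned Tgtp2 to -0.00019 in 3′SL against PBS and to 0.069 in the interaction, and, in LPS + 3′SL against LPS, Irgm1 to 0.064 and Tgtp2 to 0.069. Tgtp2 in LPS + 3′SL against LPS was also 0.0049 over all genes with at least 1 count and 0.0039 with only the compared conditions. The cause of these changes was not tested.

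Leaving out libraries or sets turned several uncalled values, most often without the set 3 library of 3′SL or of LPS. Fits that left out 1 library had no block, so the groups compared then held unequal sets. In 3′SL against PBS the lowest and highest log2 values were -0.084 and 0.93 for Gbp2, -0.21 and 0.83 for Irgm1, -0.43 and 0.78 for Igtp, -0.51 and 0.83 for Iigp1, and -1.02 and 1.16 for Tgtp2. In LPS + 3′SL against LPS they were -0.29 and 0.030 for Gbp7, -0.50 and 0.15 for Gbp9, -0.21 and 0.15 for Irgm1, -0.25 and 0.024 for Irgm2, -0.50 and 0.053 for Igtp, -0.35 and 0.069 for Iigp1, and -0.40 and 0.35 for Tgtp2. In the interaction they were -0.28 and 0.37 for Gbp9, -0.85 and 0.19 for Irgm1, -0.97 and 0.23 for Igtp, -0.96 and 0.37 for Iigp1, and -1.17 and 1.01 for Tgtp2. Among the fits that left out libraries or sets, the fold changes with LPS moved by over 1.5 times only where a set 3 library or set 3 was left out. Without the set 3 library of PBS, Tgtp2 had 7.49 and Iigp1 7.91 in LPS against PBS. Without that of 3′SL, LPS + 3′SL against 3′SL gave 7.07 for Gbp2, 6.93 for Gbp3, 5.30 for Igtp, 7.63 for Iigp1, 4.12 for Irgm1 and 7.43 for Tgtp2. Leaving out set 3 as a whole moved Tgtp2 upward by over 1.5 times in both comparisons, and by less than leaving out that 1 library.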
